A study of Homo sapiens with 12 samples.

Results

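The MYB and MYC transcription factor families were examined in ALDH+ 697(EU3) cells. The line comes from human leukaemia of B-cell precursors, and its cells with high aldehyde dehydrogenase activity (ALDH+) had been sorted for the study. The genes were chosen by symbol and not by a cut on their values, with earlier results of these data known. They were MYB, MYBL1 and MYBL2, the MYC proteins MYC and MYCN, their partner MAX, and the related factors MNT, MXI1, MXD4 and MLX. They made up 10 of the 26231 genes of the authors' normalized table, and 9 of them were among the 11968 genes with enough counts to test. MYCN was left out of the test for its low counts.

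The libraries fell into 4 groups, all from ALDH+ cells of the same labelled line. SH2 cells carried a doxycycline-inducible shRNA against IGF2BP1, an RNA-binding protein, with a green fluorescent reporter that doxycycline also switches on. They were sequenced untreated and treated with doxycycline in sets 1 to 4 (n = 4 per group). Per the labels' protocols, treated cells were sorted again for the reporter, so treated and untreated SH2 cells also differ by that sort. Control cells were sequenced untreated and treated with doxycycline in sets 2 and 4 (n = 2 per group). The labels do not say whether they carried the scrambled shRNA that the protocol mentions, or whether SH2 cells were 1 clone. Each set was a separate selection of ALDH+ cells with its own doxycycline treatment, per the design text. The question of the design is what knockdown of IGF2BP1 changes, and the series title names MYB among the genes concerned.

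MYB proteins are DNA-binding factors. MYB itself maintains the proliferation of blood progenitors, MYBL1 is best known from germ cells and germinal-centre B cells, and MYBL2 works with the MuvB complex to switch on genes of G2 and mitosis. MYC and MYCN bind the E-box CACGTG only as dimers with MAX and raise the expression of genes for ribosome production and metabolism. MNT, MXI1 and MXD4 compete for MAX and repress through the same E-box, while MLX is the MAX-like partner of the glucose-sensing factors MLXIP and MLXIPL and also pairs with MNT and MXD4.

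Promoter windows from RefSeq (build GRCh38.p14, 250 bases before to 50 after the annotated start) were found for 8 of the 10 genes, in 11 windows, with 3 for MXI1 and 2 for MAX. MYC and MYBL1 had no entry. The E-box CACGTG, which reads the same on both strands, occurred once each in the windows of MYBL2, MNT, MXD4 and MLX, and 7.26% of all 35116 promoter windows hold it. The motif AACNG, the core of the MYB site, was searched on both strands and is held by 77.2% of all windows, so its presence separates few genes. The windows below are shown because MXI1 is the gene whose difference passed the test, MXD4 is the related repressor whose difference between the cell types had the other sign, and MLX had some of the lowest within-set ratios; capitals mark CACGTG. They lie at chr10:110207355-110207654 (plus strand, the first of the MXI1 windows), chr4:2262060-2262359 (minus strand) and chr17:42566850-42567149 (plus strand).
MXI1: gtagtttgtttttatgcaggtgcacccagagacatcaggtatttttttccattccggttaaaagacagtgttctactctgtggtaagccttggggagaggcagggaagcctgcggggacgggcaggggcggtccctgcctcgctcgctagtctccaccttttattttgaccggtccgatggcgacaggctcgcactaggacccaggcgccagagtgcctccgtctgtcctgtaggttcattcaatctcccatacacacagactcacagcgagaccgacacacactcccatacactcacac
MXD4: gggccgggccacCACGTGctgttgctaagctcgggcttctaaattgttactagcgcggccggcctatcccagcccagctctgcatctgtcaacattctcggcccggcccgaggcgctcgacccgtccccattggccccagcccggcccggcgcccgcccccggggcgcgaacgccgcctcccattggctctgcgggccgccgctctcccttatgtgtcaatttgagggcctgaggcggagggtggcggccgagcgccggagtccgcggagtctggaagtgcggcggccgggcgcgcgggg
MLX: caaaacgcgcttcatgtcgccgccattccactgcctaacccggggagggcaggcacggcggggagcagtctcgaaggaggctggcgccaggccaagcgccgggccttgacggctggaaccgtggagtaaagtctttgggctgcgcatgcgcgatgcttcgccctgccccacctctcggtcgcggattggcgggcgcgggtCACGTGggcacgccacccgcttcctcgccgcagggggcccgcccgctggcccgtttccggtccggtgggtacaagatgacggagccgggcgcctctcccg
The E-box began 238 bases before the start in MXD4 and 50 bases before it in MLX, and none of the 3 MXI1 windows held one. The libraries captured the transcripts' 3' ends, so these data measure neither promoter use nor binding.

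Between 2210291 and 3370952 reads per library were assigned to genes. IGF2BP1 was lower in treated than in untreated SH2 cells in 4 of 4 sets, at 6.28 to 25.0 against 21.7 to 39.2 CPM (a gene's counts scaled to its library total), and in control cells it had 0 to 1.42 CPM. Its log2 fold change in SH2 cells was -0.99 ± 0.43 (SE), with an edgeR adjusted p of 0.983. All 9 B-precursor markers had a count in every library, whereas SH2 and control cells used different antibody light chains: kappa (IGKC) made up at most 0.141% of light-chain counts in SH2 libraries and 99.7% to 99.9% in control libraries. The presence of the shRNA and this difference between the cells cannot be told apart in any comparison of SH2 with control cells. T-cell markers summed to 579 and 597 CPM in the control libraries of set 2 and to 15.3 to 114 CPM in all others. CD2 was at 0 in every SH2 library and at no more than 3.32 CPM in control libraries. CD3E had at most 0.419 CPM and TRAC at most 1.68 CPM in SH2 libraries, against 1.91 to 103 CPM and 1.15 to 56.1 CPM in control libraries. The remaining T-cell markers, CD3D, CD3G and CD7, had counts in every SH2 library. CD3G stood at 20.9 to 85.2 CPM in SH2 libraries and at 3.06 to 206 CPM in control libraries. The treated SH2 library of set 4 stood apart, with a median correlation of 0.886 with the other SH2 libraries against 0.914 to 0.949 for the rest, so results that rest on it are also given without it.

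**Figure D1:**
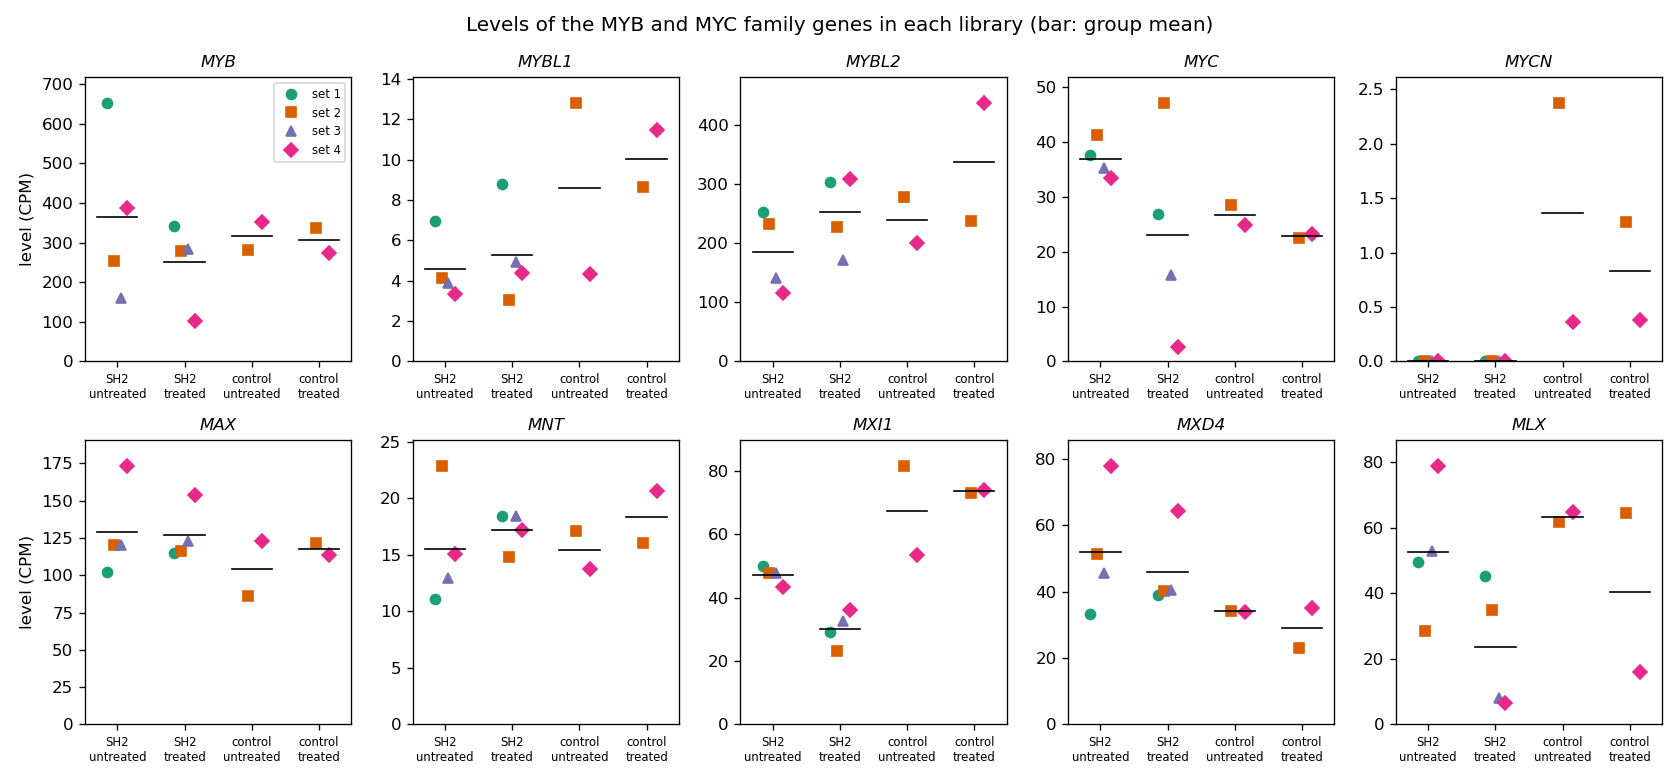
Level of each of the 10 genes in CPM (vertical axes, each from 0) by group, with 1 point per library, symbols for the sets and a bar at the group mean. MXI1 is the gene in which treated SH2 libraries, at 23.2 to 36.0 CPM, lie below both their untreated counterparts and the control libraries.

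With doxycycline, none of the 9 tested family members passed the threshold in SH2 cells (edgeR quasi-likelihood test, adjusted p at least 0.983), where 0.0167% of all genes tested passed. DESeq2 and limma also called 0 members. The main test does not use the pairing of libraries by set. With the set as a block 0 members passed as well, where 0.0501% of all genes did. At an unadjusted p under 0.05 there was 1 member, MXI1, against 4.88% of all genes. MXI1 was also the only tested member whose treated and untreated SH2 libraries did not overlap, as for 3.41% of all genes (2.03% with treated cells lower). In control cells 0 of 9 members passed by edgeR, DESeq2 or limma (0% of all genes by edgeR), and 0 had an unadjusted p under 0.05 (0.685% of all genes). In the test of whether the responses of SH2 and control cells differed, 0 of 9 passed by each tool (0% of all genes by edgeR), again with 0 at an unadjusted p under 0.05 (0.969%). Fewer cells of a kind and less RNA per cell cannot be told apart in these bulk libraries.

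MYB (ENSG00000118513, chromosome 6, 135181315 to 135219173, GRCh38), the progenitor factor named in the series title, varied more between sets than with treatment. In untreated SH2 cells it stood at 652, 254, 161 and 387 CPM in sets 1 to 4, and in treated cells at 342, 279, 283 and 103 CPM. The groups overlapped: MYB was lower after treatment in sets 1 and 4 and higher in sets 2 and 3, with within-set log2 ratios of -0.93, 0.13, 0.82 and -1.91. Untreated cells averaged 364 ± 214 CPM and treated cells 252 ± 103 CPM (SD, n = 4). The log2 fold change was -0.53 ± 0.41 (SE, 95% interval -1.42 to 0.36), with an edgeR adjusted p of 0.983. Without the untreated library of set 1 it was -0.09, and without the treated library of set 4 it was -0.27. Control cells had 281 and 352 CPM untreated and 337 and 274 CPM treated, within the range of the SH2 libraries. The SH2 response differed from the control response by -0.48 ± 0.72 (log2, SE; edgeR adjusted p = 1.0), which became -0.04 without untreated SH2 set 1, -0.22 without treated SH2 set 4 and -0.70 without untreated SH2 set 3.

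MYBL2, the cell-cycle member, stood at 253, 234, 142 and 116 CPM in untreated SH2 cells of sets 1 to 4 and at 304, 229, 172 and 309 CPM in treated ones. Its log2 fold change was 0.45 ± 0.31 (SE, edgeR adjusted p = 0.983). It was 0.34 without treated set 4, 0.27 without untreated set 4 and 0.16 without both. The same-set difference was above 1 on the log2 scale only in set 4, at 1.41 in SH2 and 1.12 in control cells, whose levels there were 201 CPM untreated and 438 CPM treated. In set 2 both cell types had ratios below 0, -0.03 in SH2 and -0.23 in control cells. MYBL1, the germ-cell member, was low throughout. It had 8 to 30 counts per library and 3.04 to 8.80 CPM in SH2 cells, against 4.34 to 12.8 CPM in control cells. Its response in SH2 cells was 0.21 ± 0.46 (log2, SE; edgeR adjusted p = 0.988).

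MYC (ENSG00000136997, chromosome 8, 127735434 to 127741434) was even in untreated SH2 cells and spread widely after treatment. Its untreated levels were 37.7, 41.2, 35.3 and 33.5 CPM in sets 1 to 4. Treated levels were 26.8, 47.1, 15.8 and 2.69 CPM, the last from 8 counts (95% counting interval 1.16 to 5.31 CPM). Set 2 was higher after treatment and the other sets lower, with log2 ratios of -0.49, 0.19, -1.16 and -3.64, so the groups overlapped. The fitted log2 fold change was -0.68 ± 0.52 (SE, 95% interval -1.79 to 0.43; edgeR adjusted p = 0.983). Single libraries moved it: it was -0.31 without treated set 4 and -1.30 without treated set 2. Control cells had 28.5 and 24.9 CPM untreated and 22.4 and 23.3 CPM treated; these groups did not overlap, as for 24% of all genes with so few libraries. The responses differed by -0.46 ± 0.90 (log2, SE; edgeR adjusted p = 1.0), by -0.08 without treated SH2 set 4 and by -1.08 without treated SH2 set 2.

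MYCN had 0 counts in all 8 SH2 libraries and a few in every control library. Untreated control cells had 5 and 1 counts in sets 2 and 4 (2.37 and 0.362 CPM), and treated ones 4 and 1 (1.28 and 0.382 CPM). The pooled control level was 5.01 times a floor of 3 counts over the SH2 group without doxycycline, and 3.20 times it with doxycycline. These ratios rest on 6 and 5 control counts. The counting error of so few control counts is not included, so neither ratio is a lower bound. Most of these counts were in set 2, the control libraries with the high T-cell markers, whose part in this was not tested. Control set 4 alone had 1 count in each library, fewer than the 3 counts of the floor, so no ratio is given without set 2.

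MAX, the shared partner, had 102 to 173 CPM in untreated and 115 to 154 CPM in treated SH2 cells, and 85.9 to 123 CPM in control cells. Its SH2 response was -0.02 ± 0.23 (log2, SE), with a 95% interval of -0.51 to 0.47. MNT, the broadly expressed repressor, had 11.1 to 22.8 CPM untreated and 14.8 to 18.4 CPM treated, a response of 0.15 ± 0.28 (log2, SE; 95% interval -0.46 to 0.76). The groups overlapped for both genes, and both had edgeR adjusted p-values above 0.98.

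**Figure D2:**
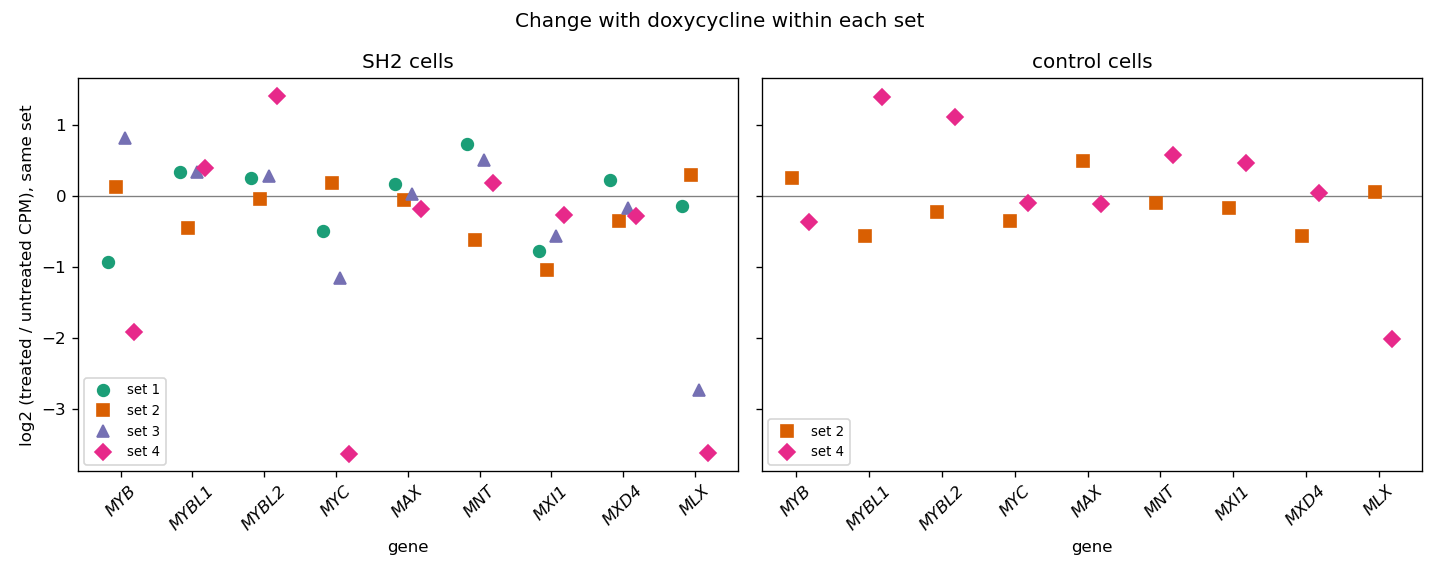
Within-set log2 ratio of the treated over the untreated library (vertical axis, CPM) for 9 genes, SH2 cells on the left and control cells on the right, with 1 symbol per set. MXI1 is below 0 in all 4 SH2 sets, while MYB, MYC and MLX spread over more than 2 log2 units.

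MXI1 (ENSG00000119950, chromosome 10, 110207605 to 110287365), which antagonizes MYC by pairing with MAX, was lower after treatment in every SH2 set. Untreated SH2 cells had 50.0, 47.7, 47.9 and 43.4 CPM in sets 1 to 4 and treated cells 29.3, 23.2, 32.6 and 36.0 CPM. No treated library reached the lowest untreated one, and the within-set log2 ratios were -0.77, -1.04, -0.56 and -0.27. Of all genes tested, 10.1% were lower in 4 of 4 sets. Untreated cells averaged 47.3 ± 2.75 CPM and treated cells 30.3 ± 5.49 CPM (SD, n = 4), with a log2 fold change of -0.64 ± 0.22 (SE, 95% interval -1.12 to -0.16), or 1.56-fold lower. The edgeR p-value was 0.0123 before adjustment and 0.983 after it, so the difference did not pass over all genes. In control cells MXI1 stood at 81.6 and 53.5 CPM untreated and at 73.1 and 74.1 CPM treated, a log2 change of 0.13 ± 0.31 (SE). The SH2 response differed from the control response by -0.77 ± 0.38 (log2, SE; edgeR adjusted p = 1.0).

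MXD4, a repressor of the MXD group that likewise pairs with MAX, had 33.2, 51.3, 45.7 and 77.8 CPM in untreated SH2 cells of sets 1 to 4 and 39.0, 40.2, 40.5 and 64.3 CPM in treated ones. Set 4 was highest in both groups and the groups overlapped. The response was -0.18 ± 0.29 (log2, SE; edgeR adjusted p = 0.986).

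MLX (ENSG00000108788, chromosome 17, 42567068 to 42573239), the partner of the glucose-sensing factors, was low in treated libraries of sets 3 and 4. Untreated SH2 cells had 49.6, 28.5, 52.8 and 78.8 CPM in sets 1 to 4, and treated cells 45.2, 34.9, 7.91 and 6.40 CPM, the last 2 from 24 and 19 counts. Control cells of set 2 had 61.7 CPM untreated and 64.4 CPM treated, and those of set 4 had 64.7 CPM untreated and 16.0 CPM treated, the last from 42 counts. The low level thus appeared in treated set 4 of both cell types, at log2 ratios of -3.62 in SH2 and -2.01 in control cells, and was not seen in treated sets 1 and 2. The SH2 response was -1.16 ± 0.58 (log2, SE; 95% interval -2.42 to 0.10; edgeR adjusted p = 0.983), and it was -0.85 without the treated library of set 4. The control response was -0.65 ± 0.81, 0.03 when treated control set 4 was left out and -1.97 when treated control set 2 was, and the responses differed by -0.51 ± 0.99 (log2, SE). Of the last 500 exonic bases of MLX, 345 overlap exons of PSMC3IP on the opposite strand; the strand setting of the counting is not given in the sources used here, so reads of the pair may be shared or lost. PSMC3IP had 13.9, 11.9, 11.3 and 4.22 CPM in untreated SH2 cells of sets 1 to 4 and 20.1, 12.9, 20.8 and 11.8 CPM in treated ones. In control cells it had 11.9 CPM untreated and 19.9 CPM treated in set 2, and 9.40 and 6.49 CPM in set 4. PSMC3IP was higher after treatment in all sets but control set 4, on 14 to 63 counts per library. Whether reads of the pair were shared or lost was not tested.

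**Figure D3:**
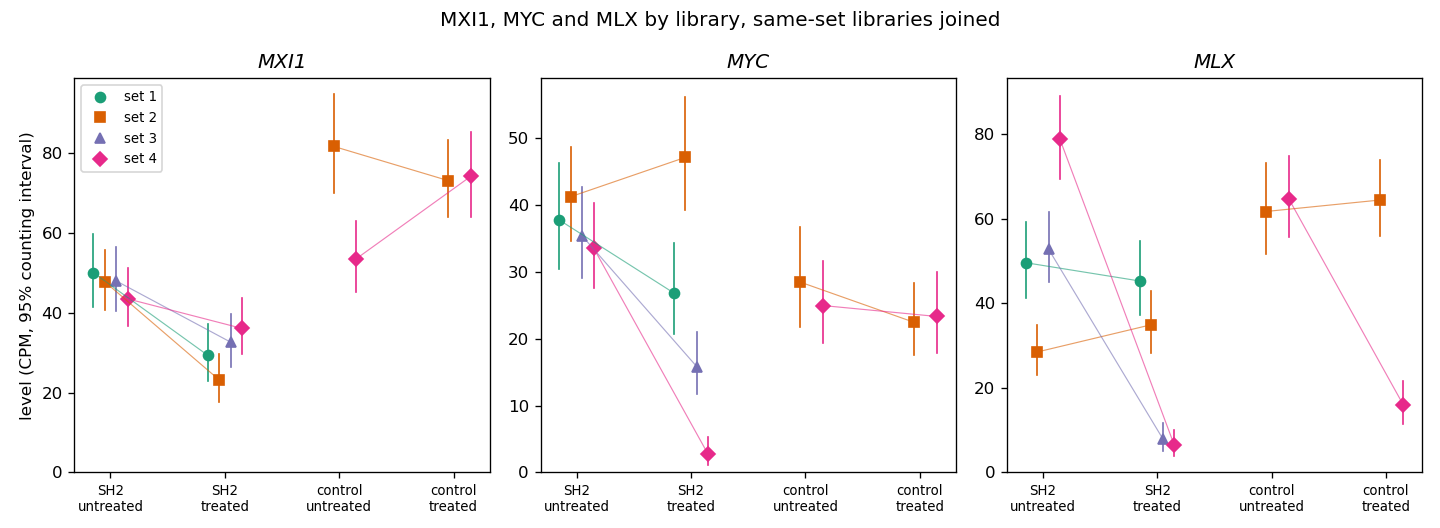
Level in CPM (vertical axis, from 0) of MXI1, MYC and MLX by library, with lines joining libraries of the same set and bars for the 95% counting interval. The treated SH2 libraries of MXI1 lie together, those of MYC run from 2.69 to 47.1 CPM, and those of MLX split into 45.2 and 34.9 against 7.91 and 6.40 CPM.

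Between the cell types, 1 of 9 tested members passed the threshold in treated cells, at about the share of all genes that did so (11.1%). This member was MXI1. With doxycycline it stood at 23.2 to 36.0 CPM in SH2 cells (n = 4) and at 73.1 and 74.1 CPM in control cells (n = 2), a log2 difference of -1.28 ± 0.26 (SE, 95% interval -1.84 to -0.72), or 2.43-fold lower in SH2 cells. The edgeR adjusted p was 0.00572, and 6.48% of all genes tested passed in that direction (11.1% in either). The call held when each library was left out in turn (-1.37 to -1.17, adjusted p 0.00383 to 0.0460), and it was lost with sets 2 and 4 alone (-1.30, adjusted p = 0.0711; range over the 9 other settings 0.000237 to 0.0711). Within sets the log2 difference was -1.66 in set 2 and -1.04 in set 4. T-cell markers summed to 597 and 15.3 CPM in the treated control libraries of sets 2 and 4, with MXI1 at 73.1 and 74.1 CPM, and to 579 and 51.7 CPM in the untreated ones, with MXI1 at 81.6 and 53.5 CPM; their part in the result was not tested. Without doxycycline the groups did not overlap either, at 43.4 to 50.0 against 53.5 and 81.6 CPM, but the difference of -0.51 ± 0.26 (log2, SE) did not pass (edgeR adjusted p = 0.310). Leaving out control set 2 brought it to -0.18.

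No other tested member passed in treated cells, or had an unadjusted p under 0.05 there (25% of all genes), and in untreated cells 0 of 9 passed by edgeR, DESeq2 or limma (7.84% of all genes by edgeR), with 0 at an unadjusted p under 0.05 (20.3%). Among tested members, groups that did not overlap were found for MXI1 and MXD4 in treated cells (31.9% of all genes) and for MXI1 and MYC in untreated cells (32.9%). The MXD4 difference had the sign opposite to that of MXI1: treated SH2 cells had 39.0 to 64.3 CPM and treated control cells 23.1 and 35.1 CPM, a log2 difference of 0.66 ± 0.37 (SE, edgeR adjusted p = 0.282). Over the 9 settings its adjusted p ran from 0.0360 to 0.460. A block for the set raised the difference to 0.92, which passed (edgeR adjusted p = 0.0360), as did 18.1% of all genes under the block. It was 0.38 without treated control set 2 (adjusted p = 0.723) and 0.46 without treated SH2 set 4 (adjusted p = 0.430). Untreated, MXD4 had 34.2 and 34.0 CPM in control cells and a difference of 0.61 ± 0.36 (log2, SE; edgeR adjusted p = 0.399). MYC stood at 33.5 to 41.2 CPM in untreated SH2 cells, above the 28.5 and 24.9 CPM of control cells, with an edgeR adjusted p of 0.770. MYBL1 had log2 differences of -0.89 ± 0.55 untreated and -0.93 ± 0.53 treated (SE, SH2 over control; edgeR adjusted p = 0.415 and 0.305). MYB differed by 0.20 ± 0.51 untreated (log2, SE; edgeR adjusted p = 0.891). The untreated and treated comparisons use different libraries of the same cells.

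Genes around the families were described by lists, which were chosen with earlier results of these data known. They are given beside all genes tested, whose median log2 response in SH2 cells was 0.03. Of 24 tested MYC targets, mostly genes of ribosome production and metabolism, 23 had a log2 response below 0 and 1 above it, with a median of -0.47; 0 passed by edgeR and 6 were lower at an unadjusted p under 0.05. Of all 11968 genes, 5554 were below 0, and 4.88% had an unadjusted p under 0.05 in either direction. In control cells 14 of the 24 were below 0, with a median of -0.05 against 0.01 for all genes. With 2 control libraries per group this direction turned on 1 library: 8 were below 0 (median 0.11) when treated control set 2 was left out, and 18 (median -0.31) when treated control set 4 was. Without the treated SH2 library of set 4 the median was -0.39, again with 23 below 0. SRM, the spermidine synthase, stood at 150, 116, 74.8 and 168 CPM in untreated SH2 cells of sets 1 to 4 and at 73.7, 50.5, 20.4 and 38.1 CPM in treated ones. SRM was lower in every set (10.1% of all genes) and its groups did not overlap (2.03% of all genes with treated cells lower). Its log2 change was -1.48 ± 0.36 (SE, edgeR adjusted p = 0.726). Under a block for the set SRM passed (-1.55, adjusted p = 0.0243), as it did by DESeq2 (-1.48, adjusted p = 0.0310) and with no filter on low counts (-1.50, adjusted p = 0.00138), within a range of 0.00138 to 1 over all settings. BOP1, a ribosome assembly factor, had 107 to 147 CPM untreated and 53.7 to 83.0 CPM treated, also without overlap (log2 -0.88 ± 0.25, SE; edgeR adjusted p = 0.862).

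Some MYC targets also differed between the cell types. In treated cells 7 of the 24 were lower in SH2 and passed, and 0 were higher and passed, where 6.48% and 4.6% of all genes did so. Their median was -0.65 against 0.04 for all genes. Without treated control set 4 the median was -0.48. The count became 4 when treated SH2 set 2 was left out, where 8.2% of all genes passed in either direction. It was 3 with the compared groups fitted alone (7.02% of all genes) and 3 with sets 2 and 4 alone (5.6%). In the main fit 11.1% of all genes passed, so calls fell over all genes in these settings too. In untreated cells 2 passed, both lower in SH2, where 4.9% of all genes passed in that direction. These were ODC1, the ornithine decarboxylase of polyamine synthesis, and the nucleotide hydrolase DNPH1. ODC1 stood at 45.1 to 74.5 CPM in untreated SH2 cells and at 194 and 155 CPM in control cells, a log2 difference of -1.55 ± 0.26 (SE, edgeR adjusted p = 0.00205). DNPH1 stood at 33.4 to 66.7 against 140 and 137 CPM, also -1.55 (± 0.36, SE; edgeR adjusted p = 0.0160), and it lost the call when either untreated control library was left out (adjusted p 0.0839 to 0.114), while its log2 difference stayed at -1.56 to -1.54. With sets 2 and 4 alone neither passed (adjusted p = 0.0609 for ODC1 and 0.186 for DNPH1).

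**Figure D4:**
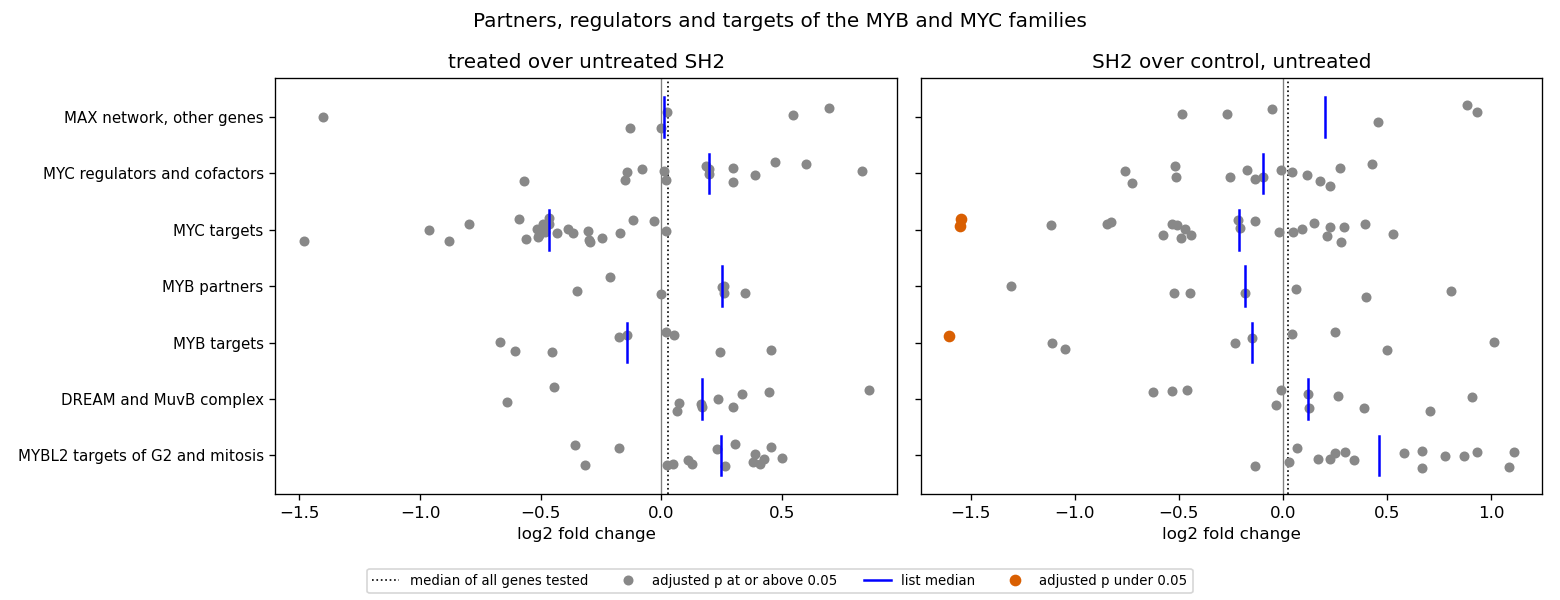
Log2 fold change (horizontal axes) of each tested gene of 7 lists, as treated over untreated SH2 cells on the left and SH2 over control cells without doxycycline on the right; blue bars are list medians, the dotted line is the median of all genes, and orange points passed an adjusted p of 0.05. The MYC targets on the left lie below 0 in 23 of 24 cases, and the orange points on the right are ODC1, DNPH1 and CDK6.

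The other lists held no gene that passed in the SH2 response by edgeR, and USP28, FOXM1 and E2F4 were their members with an unadjusted p under 0.05 (4.88% of all genes). Of 6 other MAX-network genes, 3 had responses above 0 and 3 below (median 0.01). MYCL, the third MYC protein, had 1.48 to 2.91 CPM untreated and 0.337 to 1.26 CPM treated. These rest on 5 to 9 and on 1 to 3 counts per library (log2 -1.40 ± 0.70, SE, edgeR adjusted p = 0.983). Of 15 regulators and cofactors of MYC, 11 were above 0 (median 0.20). Among them USP28, which removes ubiquitin from MYC, had 7.38 to 12.8 CPM untreated and 13.0 to 26.6 CPM treated in SH2 cells. The groups did not overlap, as for 3.41% of all genes (log2 0.83 ± 0.32, SE, edgeR adjusted p = 0.983). The 26.6 CPM was that of treated set 4, and the other treated libraries had 13.0 to 17.1 CPM. In control cells USP28 went from 14.2 to 18.3 CPM in set 2 and from 19.9 to 26.7 CPM in set 4. The responses differed by 0.44 ± 0.55 (log2, SE).

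Partners of MYB, 7 genes with 4 above 0, had a median of 0.25, and the 9 tested MYB targets, with 5 below 0, had -0.14. CDK6, a G1 kinase in the MYB target list, passed between the cell types. It stood at 29.1 to 46.6 CPM in untreated SH2 cells against 169 and 72.7 CPM in control sets 2 and 4 (log2 -1.60 ± 0.40, SE; edgeR adjusted p = 0.0231), with a like difference in treated cells (-1.60, edgeR adjusted p = 0.0184). The higher control value was that of set 2, with the high T-cell markers, whose part was not tested. Without that library the untreated difference was -0.87 (adjusted p = 0.490) and the treated one -0.74 (adjusted p = 0.407). The untreated call also depended on the SH2 side, since leaving out set 1, 2 or 4 there ended it (adjusted p at least 0.0519).

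Of 11 tested genes in a list of DREAM and MuvB genes, 9 were above 0 in SH2 cells (median 0.17). The list mixes the MuvB complex, with which MYBL2 works, with repressor subunits such as E2F4, so its direction does not measure MYBL2 action. FOXM1, the mitotic factor in this list, had 63.1, 39.4, 51.2 and 24.7 CPM in untreated SH2 cells of sets 1 to 4. Treated ones had 112, 88.1, 77.1 and 46.1 CPM. In control cells FOXM1 went from 79.2 to 153 CPM in set 2 and from 58.2 to 91.3 CPM in set 4. The log2 changes were 0.86 ± 0.33 in SH2 and 0.83 ± 0.46 in control cells (SE), neither of which passed (edgeR adjusted p = 0.983 and 1), and they differed by 0.03 ± 0.56. E2F4, a repressor subunit of DREAM, had 16.3 to 34.3 CPM untreated and 13.1 to 20.1 CPM treated in SH2 cells (log2 -0.64 ± 0.29, SE, edgeR adjusted p = 0.983). Of 16 MYBL2 targets of G2 and mitosis, 13 were above 0 in SH2 cells (median 0.25) and 14 in control cells (median 0.17), and 0 passed by edgeR in either, with 0 at an unadjusted p under 0.05.

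Across the 8 SH2 libraries, the genes whose log2 CPM followed that of MYB most closely, of 8505 with a mean of at least 3, were RBMX (Pearson r = 0.974), AKAP1 (0.964) and SUCLG1 (0.957). For MYC they were COMMD6 (r = 0.988), FADS2 (0.970) and TMEM65 (0.967). Leaving out the treated library of set 4 gave 0.951, 0.939 and 0.918 for the MYB genes and 0.965, 0.774 and 0.943 for the MYC genes. The genes had been picked for the highest r of 8505 over libraries that include these, so high values follow from the choice and test nothing. Untreated and treated libraries of a set share their selection of cells, so the points are not independent, and these values are a description.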

How the data were processed

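RNA was sequenced from the 3' end of transcripts with a QuantSeq kit, per the labels' protocols. The deposited count files hold unnormalized reads for each gene. The submitters' processing notes list FastQC, STAR, HTSeq and DESeq2 with the build hg38 (GRCh38); their versions, the annotation and the strand setting were not given in the sources used here. A second file of the authors holds normalized signal; 100% of its values were whole reads after division by a constant per library (tolerance 0.01), these equalled the counts, and the count test on them called 2 genes in the SH2 response. Its unused columns numbered 0. The 5 HTSeq summary lines were left out; per library, reads aligned more than once took 42.2% to 63.8%, 3.25% to 7.73% lay outside genes and 1.11% to 1.62% were ambiguous.

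Counts were analysed with edgeR 4.0.16 in R 4.3.3: filterByExpr (minimum count 10), TMM scaling and a robust quasi-likelihood fit of all 12 libraries with 1 term per group and none for the set. P-values were Benjamini-Hochberg adjusted over 11968 genes (threshold 0.05). The fit's biological coefficient of variation was 0.376. CPM levels use TMM-scaled libraries; counting intervals are exact Poisson 95% intervals and, like the 3-count floor, cover counting error only. The script was tested on simulated data. The labels give the groups and the sets. Deviations from group means correlated at 0.188 to 0.663 between untreated and treated SH2 libraries of the same set and at -0.548 to 0.272 between other sets. All 4 same-set pairs passed 0.1, and the set numbers of the labels were taken as the pairing. The lowest same-set value, 0.188 in set 2, was below the highest between sets, so the correlations alone do not show the pairing of that set. The main fit left this pairing out, so its standard errors, intervals and p-values for the SH2 response are unpaired. No replicate pair was within sampling noise (chi-square per degree of freedom 9.29 to 54.5).

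Alternatives were DESeq2 size factors, the test of DESeq2 1.42.0, limma 3.58.1 on the deposited table (pseudocount 1), no filter, the set as a block, the compared groups alone, sets 2 and 4 alone, and libraries left out. The recovered-read test was added after seeing the data. Genes and lists were chosen with earlier results of these data known. The rule named all 10 members, IGF2BP1, the 2 genes per list with the smallest p in the SH2 response and in untreated SH2 against control cells, and the 3 genes most correlated with MYB and with MYC; not all are printed. PSMC3IP, IGKC, CD2, CD3D, CD3E, CD3G, CD7 and TRAC were chosen outside this rule. Positions are from GENCODE on GRCh38.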

Additional observations from a re-analysis of the deposited data

Results flagged for a closer look

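The MXD4 level of the treated SH2 library of set 4, 64.3 CPM, stood far from the other treated SH2 libraries, which lay between 39.0 and 40.5 CPM. Its gap to the nearest of them was 0.938 of the group's range, above Dixon's 95% critical value for 4 samples. It was the only such case among the 18 groups of 4 examined, and chance gives about 1 in 20. MXD4 was also highest in set 4 among untreated SH2 libraries, at 77.8 CPM.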

How the results depend on the processing

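With the set as a replicate block, 2 members (MXI1 and MXD4) passed between treated SH2 and control cells in place of 1. Of all genes tested, 18.1% passed there under the block, against 11.1% in the main fit. MYB in untreated cells changed sign to -0.14, and no member's call other than that of MXD4 changed under the block. With sets 2 and 4 alone, 0 members passed between treated SH2 and control cells (5.6% of all genes). In the SH2 response MNT then became -0.24 and MYBL1 -0.00404. MAX in the SH2 response became 0.000907 with limma and 0.0484 without both SH2 libraries of set 4, where the MLX difference of responses became 0.0678. The other settings kept the direction of every fitted value reported for the members. With single libraries left out, some values changed sign: MAX ran from -0.13 to 0.15, MXD4 from -0.38 to 0.0835 and MYBL1 from -0.13 to 0.47 in the SH2 response. MLX ran from -1.97 to 0.0340 and MXI1 from -0.14 to 0.46 in the control response, and the MLX difference of responses from -1.20 to 0.81. In untreated SH2 against control cells MYB ran from -0.24 to 0.41 and MYBL1 from -1.48 to 0.0645. The cause was not tested. Over all genes, the 2 calls of the SH2 response became 0 to 47 under the alternatives, the 938 between untreated cell types 413 to 1505 and the 1326 between treated ones 652 to 2171; without single libraries they ran from 0 to 3, 343 to 1202 and 645 to 1462. Depth limits MYCN, MYBL1, MYCL and the lowest MYC and MLX libraries, and 2 control libraries per group limit every comparison with control cells.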

Other observations

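Among the 36 pairs of tested members over the 8 SH2 libraries, MAX and MXD4 had a Pearson r of 0.96 (0.95 without the treated library of set 4), MYC and MLX 0.80 (0.67) and MYB and MYC 0.65 (0.02). These are values of log2 CPM in libraries that share sets, given as a description.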
